A study of Homo sapiens with 9 samples.

Results

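The zinc finger (ZNF) genes of chromosome 19 were followed in HCT116, a human colorectal cancer cell line, after overexpression of the long noncoding RNA CRLM1. Members were the genes listed as protein-coding, placed on chromosome 19 and named ZNF followed by a number and at most 1 letter. This rule used no measured value and took 217 of the 31558 genes in the count table, which holds only genes that the authors called expressed. GENCODE version 44 has 246 protein-coding genes of chromosome 19 with such a name, and those that were not members were not analysed here. Of the 217, 216 are still protein-coding in that version and 1, ZNF781, is now annotated as a pseudogene.

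Poly(A) RNA was sequenced from 9 samples in 3 groups of 3 biological replicates. The CRLM1-OE cells overexpressed CRLM1, the Ctrl cells carried the empty plasmid, and the Anti cells carried a plasmid with the CRLM1 sequence in antisense. The study describes the cells of this experiment as transfected. Its methods name a lentiviral pTSB-GFP-puro vector for CRLM1 and selection with puromycin, but do not say whether all 3 groups went through both. The study does not say whether the replicates of a group came from 1 modified line or from separate transfections. A difference between groups and a difference between lines therefore cannot be told apart, and p-values measure only the spread between these samples.

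Most ZNF genes of chromosome 19 encode proteins with an N-terminal KRAB domain and a row of C2H2 zinc fingers. The fingers bind DNA, often within transposable elements, and the KRAB domain recruits TRIM28 (KAP1), a scaffold for the histone methyltransferase SETDB1, the heterochromatin protein HP1 and the NuRD complex, which together set up a repressed, H3K9-trimethylated state. The genes arose by repeated tandem duplication and lie in clusters, and some members lack the KRAB domain.

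Each sample held between 33302292 and 44514692 counts, and correlations of log2 CPM (counts scaled to a common library size) were 0.996 to 0.997 between samples of 1 group and 0.969 to 0.990 between groups. CRLM1, listed as RP4-710M16.2, had between 32751 and 38704 counts in CRLM1-OE, 0 in each Ctrl sample and between 1540 and 1951 in Anti. The epithelial markers EPCAM, CDH1, KRT8, KRT18, KRT19 and CDX2 were present in all samples, whereas the colon markers VIL1, CDX1 and LGALS4 had at most 10 counts in any sample. PTPRC, COL1A2, DCN, PECAM1 and ALB, which mark blood, fibroblasts, endothelium and liver, had at most 6 counts, CD79A 2 to 12 and VWF 7 to 35. COL1A1, a fibroblast marker, had 305 to 652 counts, with a mean of 2.20 FPKM in CRLM1-OE, as against 1.20 in Ctrl and 1.31 in Anti. The part of these markers in the values below was not tested.

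The members fell into 15 position groups along the chromosome, a new group beginning where consecutive members started more than 1 Mb apart (GRCh38, GENCODE version 44). The largest, group 15, held 53 members between ZNF628 and ZNF446 (chr19:55476617-58481230). Group 14 held 35 members between ZNF175 and ZNF331 (chr19:51571283-53580269), group 5 held 26 between ZNF101 and ZNF254 (chr19:19668796-24129968), and group 8 held 25 between ZNF565 and ZNF573 (chr19:36182276-37817300). Group 11 held 23 members (chr19:43525497-45076478), group 3 held 21 (chr19:11483427-12640098) and group 2 held 14 (chr19:7069703-9793180). The members lay on both strands, 117 on the forward and 100 on the reverse.

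The promoters of 4 members are shown because these genes stood at the ends of the change against Anti among members with a mean count of at least 100. ZNF358 and ZNF587B were the pair at the lower end and ZNF333 and ZNF83 the pair at the upper end. Each window runs 5′ to 3′ on the gene's strand, from 250 bases before to 50 after the RefSeq start (GRCh38.p14). Capitals mark CCGGAAGT, the core bound by ETS factors, found on either strand.
ZNF358, chr19:7515853-7516152, forward strand: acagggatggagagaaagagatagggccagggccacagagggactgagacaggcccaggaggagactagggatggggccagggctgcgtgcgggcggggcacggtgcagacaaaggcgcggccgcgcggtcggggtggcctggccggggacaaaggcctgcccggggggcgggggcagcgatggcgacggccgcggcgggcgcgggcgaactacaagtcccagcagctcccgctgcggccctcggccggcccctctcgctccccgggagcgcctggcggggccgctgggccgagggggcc
ZNF587B, chr19:57830049-57830348, forward strand: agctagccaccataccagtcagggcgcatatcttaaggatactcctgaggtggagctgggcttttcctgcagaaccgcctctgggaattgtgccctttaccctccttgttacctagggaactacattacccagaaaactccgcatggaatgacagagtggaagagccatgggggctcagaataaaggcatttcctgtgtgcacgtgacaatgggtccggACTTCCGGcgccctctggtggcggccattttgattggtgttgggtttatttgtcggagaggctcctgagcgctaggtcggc
ZNF333, chr19:14689798-14690097, forward strand: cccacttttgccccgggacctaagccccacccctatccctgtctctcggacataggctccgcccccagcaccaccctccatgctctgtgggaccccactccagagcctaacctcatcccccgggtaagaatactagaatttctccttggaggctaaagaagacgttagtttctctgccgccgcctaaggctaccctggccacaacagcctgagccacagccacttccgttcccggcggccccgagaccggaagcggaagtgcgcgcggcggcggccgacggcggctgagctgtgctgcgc
ZNF83, chr19:52690447-52690746, reverse strand: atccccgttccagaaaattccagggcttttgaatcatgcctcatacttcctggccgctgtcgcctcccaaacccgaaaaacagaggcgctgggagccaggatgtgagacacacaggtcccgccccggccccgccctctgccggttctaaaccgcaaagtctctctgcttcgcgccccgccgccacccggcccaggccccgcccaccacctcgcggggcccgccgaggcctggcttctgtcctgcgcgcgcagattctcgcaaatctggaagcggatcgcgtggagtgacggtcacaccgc

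The ZNF587B window held 1 CCGGAAGT and the other 3 windows held none. Over the 194 members with a RefSeq promoter, 42 windows (21.6%) held CCGGAAGT, compared with 4.44% of all 27305 RefSeq promoters, 5.02% of those of other coding genes of chromosome 19 and 14.7% of those of ZNF genes on other chromosomes. Of the promoters of the protein-coding genes measured here, 7.10% held it. The C-rich letters CCCTCCC stood in 15.98% of the members' windows, against 25.4% of all promoters and 38.6% of those of other coding genes of chromosome 19. They stood in 32.1% of those of the protein-coding genes measured here and 27.4% of those of ZNF genes on other chromosomes. TATAAA, the TATA-box core, stood in 2.06% of the members' windows and 11.95% of all. Its share was 7.42% for the protein-coding genes measured here, 6.61% for other coding genes of chromosome 19 and 4.06% for ZNF genes on other chromosomes. The windows of members had a median GC content of 60.7% and 21 CpG dinucleotides, and those of all RefSeq promoters 58.3% and 14. The medians of the like sets were above those of the members. They were 64.0% and 24 for the protein-coding genes measured here and 64.7% and 23 for other coding genes of chromosome 19. For ZNF genes of other chromosomes they were 63.0% and 24. CCGGAAGT was in 31.8% of the windows of members higher in CRLM1-OE than in Ctrl, 24.4% of those lower and 25 of the 125 windows of those that did not pass, with 22 and 41 windows in the higher and lower sets. Against Anti it was in 3 of 15, 12 of 50 and 27 of 120 windows. In the same order, CCCTCCC was in 3, 11 and 17 of the windows against Ctrl and in 2, 9 and 19 against Anti. TATAAA was in 1, 1 and 2 windows in both comparisons. These differences were not tested.

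The members were expressed at low levels. Their median FPKM (fragments per kilobase of exon and library size, a level per length) over the 9 samples was 0.331, compared with 2.35 for all protein-coding genes, 4.21 for the other coding genes of chromosome 19 and 1.33 for 244 ZNF genes of other chromosomes. A mean FPKM of at least 1 was reached by 62 members and of at least 10 by 5. By counts, 83 members had a mean of at least 100 over the 9 samples, 68 between 10 and 100, and 66 under 10. In 39 members no sample held more than 3 counts, and at this depth a change of these genes was not detectable.

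The levels varied with position. In group 5, 10 of 26 members (38.5%) never exceeded 3 counts and the median level was 0.095 FPKM, and in group 8 it was 10 of 25 (40.0%) and 0.034 FPKM. In group 15 it was 6 of 53 (11.3%) and 1.09 FPKM, and in group 2 it was 1 of 14 and 1.19 FPKM. Near-silent and expressed members were neighbours within each of these groups.

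**Figure D1:**
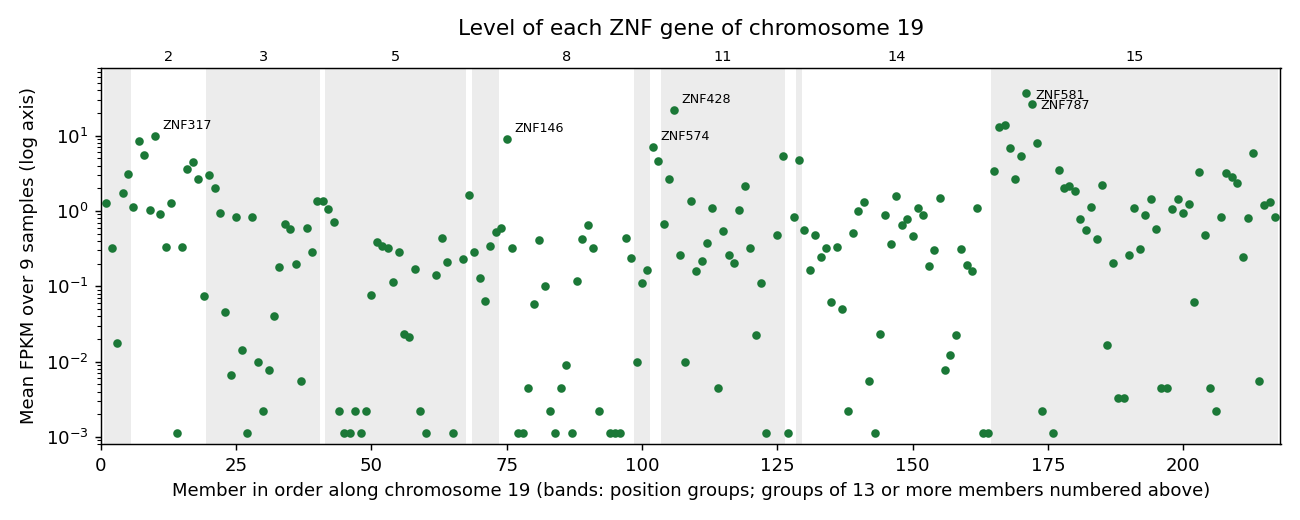
Mean FPKM over 9 samples (vertical log axis) of each member in its order along chromosome 19 (horizontal axis), with bands for the position groups. The medians of groups 5 and 8 are 0.095 and 0.034 FPKM, and the highest values, ZNF581 at 36.3 and ZNF787 at 26.5 FPKM, lie at the start of group 15. Members at 0 or without an FPKM value are not drawn.

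The 10 members with the highest level were ZNF581 (36.3 FPKM), ZNF787 (26.5), ZNF428 (21.9), ZNF524 (13.96), ZNF579 (13.2), ZNF317 (9.85), ZNF146 (9.09), ZNF358 (8.40), ZNF444 (7.89) and ZNF574 (7.12). ZNF581, the highest, had 27.6 ± 1.6 FPKM in CRLM1-OE, as against 42.0 ± 0.46 in Ctrl and 39.2 ± 1.1 in Anti (SD, n = 3). ZNF146, also called OZF, consists almost only of zinc fingers. ZNF444 carries a SCAN domain rather than a KRAB domain.

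The members with a well-known function were mostly low or showed no change that passed the test. ZNF91, which represses SVA retrotransposons, had 86 to 131 counts in CRLM1-OE and Ctrl and 94 to 137 in Anti, and its log2 fold change was -0.20 ± 0.15 (SE) against Ctrl (edgeR adjusted p = 0.36). ZNF93, which binds L1 elements, had 1 count in 1 Ctrl sample and 0 in the other 8. ZNF420 (Apak), a repressor of p53 activity, had 1 count in all. ZNF331, ZNF382, ZNF582 and ZNF671, each reported as silenced by promoter methylation in tumours, had at most 7 counts in any sample, and ZNF331, ZNF582 and ZNF671 at most 2.

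ZNF224, ZNF304 and ZNF350 (ZBRK1), which are KRAB repressors, did not pass in any comparison. ZNF304, linked to gene silencing in colorectal cancer cells, was 3.51 to 4.19 CPM in CRLM1-OE, 3.69 to 4.16 in Ctrl and 4.21 to 4.72 in Anti. ZNF274, which recruits SETDB1 to the 3′ ends of other ZNF genes, had 13.7, 12.8 and 11.9 CPM in CRLM1-OE, 10.96, 10.1 and 9.20 in Ctrl, and 9.73, 9.53 and 10.2 in Anti. The CRLM1-OE samples were above all others, and ZNF274 rose by 0.34 ± 0.08 on the log2 scale against Ctrl (edgeR adjusted p = 5.6e-05) and by 0.39 ± 0.08 against Anti (adjusted p = 2.7e-06).

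CRLM1-OE was first compared with Ctrl, which asks what CRLM1 overexpression changes relative to the empty plasmid. Of the 209 members with at least 1 count in these 6 samples, 23 rose and 43 fell in CRLM1-OE at an adjusted p of at most 0.05, and 143 did not pass. Over all 29846 genes tested, 15.0% were higher and 16.8% lower, compared with 11.005% and 20.6% of the members. The median log2 fold change was -0.10 over the members and 0.02 over all genes. The ZNF genes of other chromosomes had a median of -0.11, with 21.1% higher and 32.6% lower. Of the 3 members that also changed at least 2-fold, 2 were lower (ZNF112 and ZNF358) and 1 higher (ZNF461), calls made for 0.915% and 2.5% of all genes.

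The direction of this balance depended on the scaling. TMM factors, which align the bulk of genes between libraries, were used throughout, and with total counts alone 35 members were higher and 26 lower (median 0.03). Over all genes averaging at least 100 counts, total counts moved the median from -0.05 to 0.09, so that of all genes that passed 69.3% were higher in place of 47.1%, and of the members 57.4% in place of 34.8%. Among the 83 members with a mean count of at least 100, 20.5% were higher and 37.3% lower with TMM factors, beside 28.8% and 39.1% of all 11702 such genes. The ZNF genes of other chromosomes had 25.7% higher and 42.7% lower. The medians were -0.08 for the members, -0.05 for all genes and -0.12 for the ZNF genes of other chromosomes.

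The largest decrease of an abundant member was that of ZNF358 (chr19:7515292-7521025), a C2H2 protein. ZNF358 had 10.1, 9.90 and 10.8 CPM (scaled with TMM factors) in the CRLM1-OE samples, 21.3, 21.4 and 20.3 in Ctrl, and 26.2, 23.6 and 25.6 in Anti. The groups did not overlap, and the log2 fold change of CRLM1-OE was -1.03 ± 0.07 against Ctrl (edgeR adjusted p = 2.2e-49). Of the stretches of 75 bases (75-mers) in its transcripts, 25.01% also occur on either strand in transcripts of other genes, and whether strand was used in the counting is not given in the sources used here.

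ZNF581 (chr19:55635459-55645623), the most abundant member, had 44.8, 49.9 and 48.3 CPM in CRLM1-OE, 78.8, 79.7 and 77.8 in Ctrl, and 71.8, 68.3 and 70.4 in Anti. It fell by 0.73 on the log2 scale against Ctrl (SE 0.04, edgeR adjusted p = 7.3e-83). ZNF428 (chr19:43607224-43619629) had 24.7, 25.8 and 26.5 CPM in CRLM1-OE against 39.6, 40.4 and 40.8 in Ctrl, a log2 fold change of -0.65 ± 0.05. In both genes every CRLM1-OE sample lay below every sample of the other groups. ZNF428 shares 27.5% of its 75-mers with SRRM5, an overlapping gene.

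ZNF784, ZNF416, ZNF557, ZNF587B and ZNF584 completed the lower end. ZNF784 (chr19:55620741-55624566) had 4.70, 3.99 and 3.58 CPM in CRLM1-OE, 5.69, 6.77 and 7.07 in Ctrl, and 7.06, 8.36 and 9.10 in Anti. ZNF557 had 5.33, 5.45 and 5.55 CPM in CRLM1-OE and 7.70, 9.04 and 8.66 in Ctrl. The log2 fold changes against Ctrl were -0.66 ± 0.11 for ZNF784, -0.63 ± 0.10 for ZNF557, -0.71 ± 0.14 for ZNF416 and -0.56 ± 0.07 for ZNF584, and in each the CRLM1-OE and Ctrl samples were apart.

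The increases were led by ZNF333, a KRAB zinc finger protein that stands alone as position group 4 (chr19:14689801-14733746). ZNF333 had 19.2, 18.5 and 18.1 CPM in CRLM1-OE, 10.1, 9.97 and 10.1 in Ctrl, and 8.94, 9.59 and 9.73 in Anti. Every CRLM1-OE sample was above every other sample, and the log2 fold change was 0.89 ± 0.07 against Ctrl (edgeR adjusted p = 1.7e-34). Of its 75-mers 10.8% were shared, mostly with ADGRE2, a neighbouring gene.

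ZNF83 (chr19:52594060-52690559) followed, with 16.3, 17.0 and 16.1 CPM in CRLM1-OE, 10.1, 10.1 and 9.68 in Ctrl, and 9.11, 7.93 and 9.81 in Anti. Its log2 fold change was 0.73 ± 0.07 (edgeR adjusted p = 4.5e-22). ZNF699 had 5.24, 4.71 and 3.89 CPM in CRLM1-OE, 2.29, 2.86 and 2.94 in Ctrl, and 3.06, 3.73 and 2.70 in Anti, with a log2 fold change of 0.79 ± 0.13 against Ctrl. For both genes, too, the CRLM1-OE samples were the highest of the 9.

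Smaller increases against Ctrl were those of ZNF430 (0.52 ± 0.14), ZNF266 (0.41 ± 0.09), ZNF558 (0.41 ± 0.09), ZNF761 (0.40 ± 0.10) and ZNF426 (0.39 ± 0.15), all on the log2 scale with SE. ZNF426 no longer passed without CRLM1-OE replicate 2 (edgeR adjusted p = 0.10), Ctrl replicate 2 (0.11) or Ctrl replicate 3 (0.082). ZNF461 rested on few reads, with 5, 18 and 18 counts in CRLM1-OE, 7, 1 and 2 in Ctrl and 4, 3 and 1 in Anti, so that CRLM1-OE and Ctrl overlapped. Its log2 fold change against Ctrl was 1.93 ± 0.55, and without CRLM1-OE replicate 2 its edgeR adjusted p was 0.051. ZNF112 had 7, 14 and 8 counts in CRLM1-OE, 22, 16 and 27 in Ctrl and 23, 19 and 20 in Anti, a log2 fold change of -1.26 ± 0.37 against Ctrl. Without Ctrl replicate 3 its edgeR adjusted p against Ctrl was 0.074, and without CRLM1-OE replicate 1 that against Anti was 0.080.

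**Figure D2:**
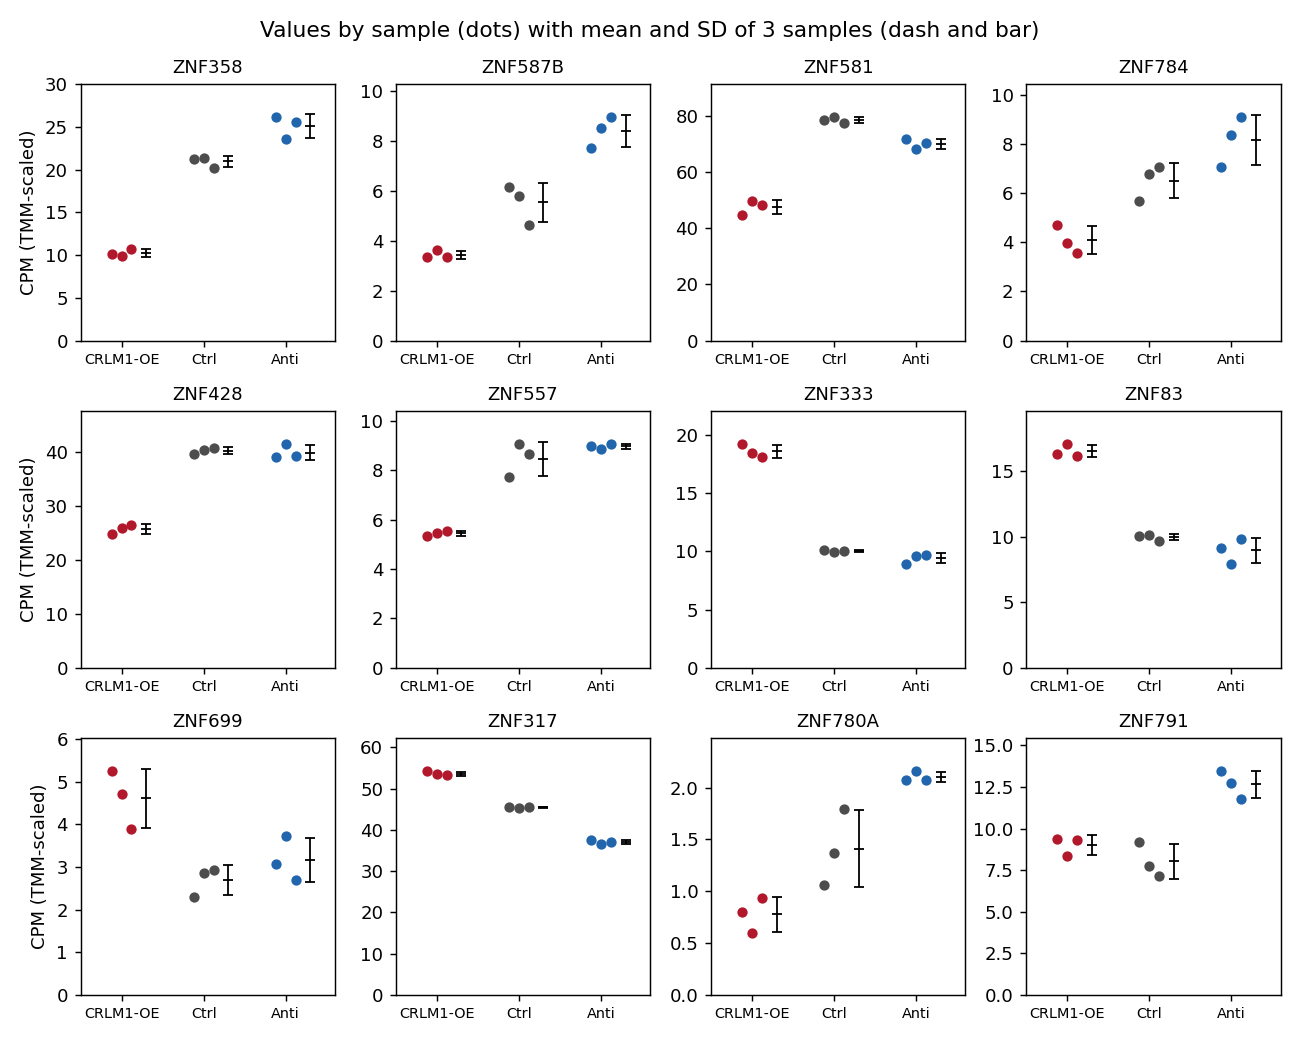
TMM-scaled CPM (vertical axes, from 0) of 12 members in each sample of CRLM1-OE, Ctrl and Anti (dots), with the mean and SD of the 3 samples of a group (dash and bar). ZNF358, ZNF587B, ZNF581, ZNF784, ZNF428, ZNF557 and ZNF780A have their lowest values in CRLM1-OE, ZNF333, ZNF83, ZNF699 and ZNF317 their highest, and ZNF791 is highest in Anti.

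CRLM1-OE was then compared with Anti, the other control, in which the plasmid carried the CRLM1 sequence in antisense. Because both comparisons share the CRLM1-OE samples, their values are given side by side and their overlap is not read. Of 207 members tested, 18 were higher and 53 lower in CRLM1-OE and 136 did not pass, that is 8.70% and 25.6%, beside 17.1% and 18.5% of all 30183 genes. The median log2 fold change was -0.13 over the members and -0.02 over all genes. With total counts 20 members were higher and 48 lower.

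At a mean of 100 counts or more, 14.5% of the members were higher and 36.1% lower, beside 33.8% and 40.4% of all genes. The ZNF genes of other chromosomes had 18.7% higher and 51.5% lower (median -0.20). The other coding genes of chromosome 19 had 45.1% higher and 30.2% lower (median 0.06). These shares are descriptions, and the difference between the sets was not tested.

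**Figure D3:**
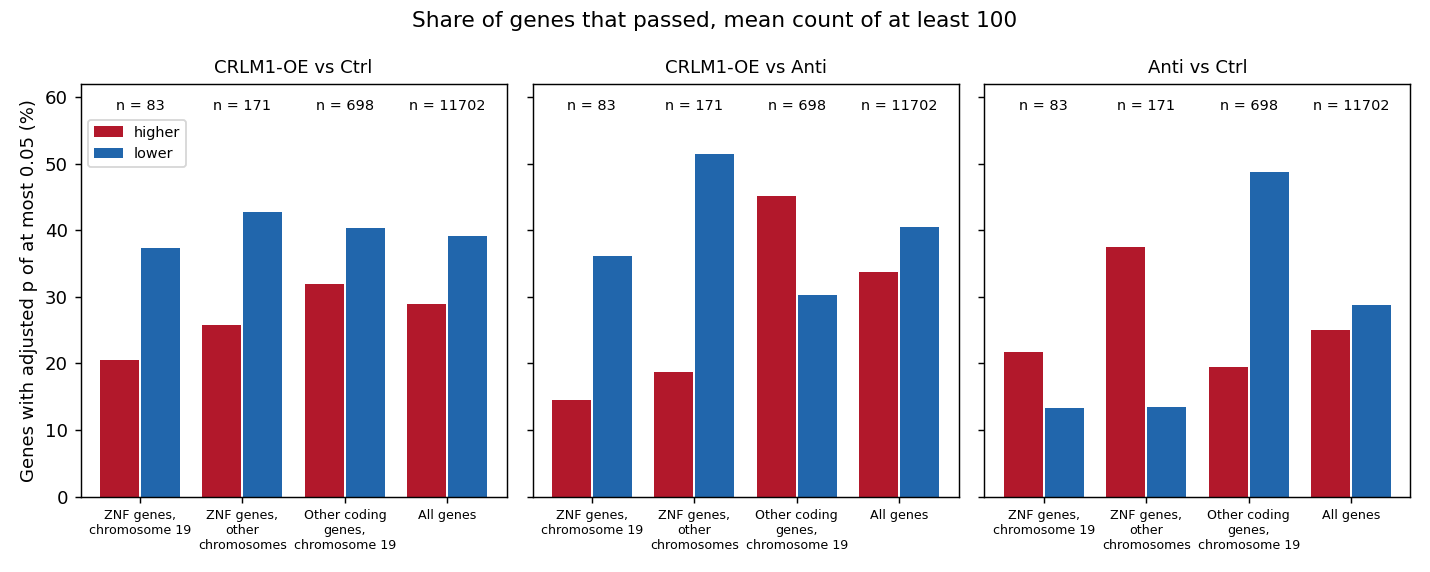
Share of genes averaging at least 100 counts (vertical axis, percent) that were higher or lower at an adjusted p of at most 0.05, for 83 ZNF genes of chromosome 19, 171 ZNF genes of other chromosomes, 698 other coding genes of chromosome 19 and all 11702 genes. Against Anti, 36.1% of the members and 51.5% of the other ZNF genes were lower in CRLM1-OE, and 45.1% of the other coding genes of chromosome 19 were higher.

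At 2-fold, 2 members were higher against Anti (ZNF461 and ZNF321P) and 9 lower (ZNF112, ZNF154, ZNF234, ZNF358, ZNF573, ZNF587B, ZNF780A, ZNF780B and ZNF85), calls made for 3.09% and 2.56% of all genes. ZNF358 fell by 1.29 on the log2 scale (SE 0.07, edgeR adjusted p = 2.8e-85). ZNF587B (chr19:57819721-57846238) had 3.35, 3.62 and 3.36 CPM in CRLM1-OE, 6.17, 5.80 and 4.65 in Ctrl, and 7.70, 8.52 and 8.96 in Anti. The groups were ordered CRLM1-OE, Ctrl, Anti with no overlap, and ZNF587B fell by 1.28 against Anti (SE 0.11, adjusted p = 1.1e-31), by 0.69 against Ctrl (SE 0.12, adjusted p = 5.8e-08) and was higher by 0.56 ± 0.10 in Anti than in Ctrl (adjusted p = 1.4e-07).

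ZNF780A and ZNF780B are neighbouring paralogs that, with ZNF546, form position group 9 (chr19:39984134-40090943). ZNF780A had 0.798, 0.599 and 0.934 CPM in CRLM1-OE, 1.06, 1.37 and 1.80 in Ctrl, and 2.07, 2.16 and 2.08 in Anti. ZNF780B had 0.912, 0.884 and 0.505 CPM in CRLM1-OE, 0.945, 0.875 and 0.989 in Ctrl, and 1.58, 1.78 and 1.59 in Anti. Both were highest in Anti, and the fall in CRLM1-OE against Anti was -1.42 ± 0.21 for ZNF780A and -1.10 ± 0.22 for ZNF780B on the log2 scale. Against Ctrl, ZNF780A fell by 0.83 (edgeR adjusted p = 0.0015), and ZNF780B, whose groups overlapped, had -0.29 ± 0.26 (adjusted p = 0.48).

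ZNF234, of group 11, had 0.502, 0.513 and 0.959 CPM in CRLM1-OE and 1.48, 1.33 and 1.42 in Anti (-1.10 ± 0.24). ZNF573, of group 8, had 8, 13 and 21 counts in CRLM1-OE and 48, 50 and 27 in Anti (-1.62 ± 0.30). The CRLM1-OE and Anti samples were apart in both. ZNF85, a KRAB repressor of group 5, had 6, 4 and 12 counts in CRLM1-OE and 15, 24 and 8 in Anti, which overlapped, and its edgeR adjusted p was 0.12 without CRLM1-OE replicate 1 or 2 and 0.40 without Anti replicate 2.

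ZNF154 had 0, 0 and 0 counts in CRLM1-OE, 0, 0 and 2 in Ctrl and 4, 1 and 3 in Anti, near the limit of 3 counts, and no fold is given. It no longer passed in 8 of 12 alternatives, and its edgeR adjusted p without 1 library was 0.092 to 0.15 for each of the 3 CRLM1-OE replicates and Anti replicates 1 and 3. ZNF321P, with 15, 8 and 20 counts in CRLM1-OE and 4, 6 and 8 in Anti, shares 94.1% of its 75-mers with ZNF816 and its read-through transcript. It was lost in 8 of 13 alternatives, and its edgeR adjusted p was 0.065 without CRLM1-OE replicate 1, 0.28 without CRLM1-OE replicate 3, 0.19 without Anti replicate 1 and 0.075 without Anti replicate 2.

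The other abundant members at the lower end against Anti were ZNF784 (-0.98 ± 0.10), ZNF440 (-0.86 ± 0.13), ZNF776 (-0.78 ± 0.10), ZNF557 (-0.72 ± 0.10), ZNF416 (-0.67 ± 0.14) and ZNF552 (-0.64 ± 0.15). At the upper end ZNF333 rose by 0.99 ± 0.07 and ZNF83 by 0.89 ± 0.07. ZNF226 rose by 0.61 ± 0.09, with 8.23, 10.2 and 8.71 CPM in CRLM1-OE, 7.68, 6.88 and 7.01 in Ctrl and 6.62, 5.54 and 5.55 in Anti, 3 groups without overlap. ZNF317, the sixth most abundant member, had 54.2, 53.6 and 53.2 CPM in CRLM1-OE, 45.6, 45.4 and 45.6 in Ctrl, and 37.6, 36.7 and 37.0 in Anti, and its rise was 0.54 ± 0.04 against Anti and 0.24 ± 0.04 against Ctrl.

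The remaining increases against Anti were ZNF699 (0.55 ± 0.13), ZNF430 (0.49 ± 0.14), ZNF823 (0.44 ± 0.15) and ZNF761 (0.42 ± 0.10). ZNF823 had 2.44, 3.17 and 3.51 CPM in CRLM1-OE and 2.72, 2.00 and 1.93 in Anti, which overlapped. Its edgeR adjusted p was 0.11 without CRLM1-OE replicate 3, 0.060 without Anti replicate 2 and 0.091 without Anti replicate 3.

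The comparison of Anti with Ctrl tested the controls against each other. Of 213 members, 29 were higher and 12 lower in Anti, that is 13.6% and 5.63%, beside 11.5% and 12.2% of all 29714 genes. The median log2 fold change was 0.04 over the members and became -0.01 without Anti replicate 1. At a mean of 100 counts or more, 21.7% of the members were higher and 13.3% lower, beside 25.04% and 28.8% of all genes, 37.4% and 13.5% of the ZNF genes of other chromosomes and 19.5% and 48.7% of the other coding genes of chromosome 19. With total counts 44 members were higher and 5 lower, and the median of all genes averaging at least 100 counts moved from -0.01 to 0.10.

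The increases in Anti were led by ZNF324B (0.70 ± 0.12), ZNF791 (0.62 ± 0.08), ZNF552 (0.62 ± 0.15), ZNF551 (0.58 ± 0.14), ZNF587B, ZNF440 (0.43 ± 0.12), ZNF543 (0.37 ± 0.09) and ZNF585B (0.37 ± 0.14). ZNF791 had 13.4, 12.8 and 11.8 CPM in Anti, 9.22, 7.73 and 7.16 in Ctrl, and 9.39, 8.33 and 9.29 in CRLM1-OE. Its CRLM1-OE and Ctrl samples overlapped, and the Anti samples lay above both. ZNF324B had 6.52, 4.87 and 5.92 CPM in Anti, 4.67, 4.36 and 4.39 in CRLM1-OE, and 3.80, 3.15 and 3.51 in Ctrl, so that CRLM1-OE stood between the controls.

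ZNF441 was the only member called at 2-fold between the controls, where 0.683% of all genes were called as higher and 0.38% as lower, and it had 11, 18 and 10 counts in Anti, 3, 3 and 4 in Ctrl, and 10, 9 and 7 in CRLM1-OE. Without Anti replicate 2 its edgeR adjusted p was 0.087. ZNF585B gave 0.17 without Ctrl replicate 3, 0.15 without Anti replicate 2 and 0.057 without Anti replicate 3.

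Lower in Anti were ZNF296 (-0.49 ± 0.08), ZNF600 (-0.45 ± 0.13), ZNF468 (-0.36 ± 0.11), ZNF480 (-0.34 ± 0.10), ZNF317 (-0.32 ± 0.04), ZNF226 (-0.31 ± 0.10), ZNF227 (-0.23 ± 0.09) and ZNF524 (-0.22 ± 0.06). ZNF296, known from pluripotent cells, had 8.67, 10.3 and 9.05 CPM in Anti, 12.5, 13.9 and 12.2 in Ctrl, and 9.42, 9.16 and 9.66 in CRLM1-OE. It was lower than in Ctrl in both other groups, and CRLM1-OE and Anti overlapped (0.02 ± 0.08).

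Of these 8 calls, 5 were lost when 1 library was left out. The edgeR adjusted p was 0.059 for ZNF600 without Anti replicate 2, 0.14 for ZNF468 without Ctrl replicate 1 and 0.18 for ZNF524 without Ctrl replicate 3. ZNF226 gave 0.10 without Ctrl replicate 1, 0.072 without Anti replicate 2 and 0.082 without Anti replicate 3. ZNF227 gave 0.059, 0.17 and 0.098 without Ctrl replicates 1, 2 and 3, 0.098 without Anti replicate 1 and 0.25 without Anti replicate 3. Over all 15 alternatives ZNF480 was lost in 3, and ZNF296 and ZNF317 in none. With total counts only 5 members in all were lower in Anti.

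The position groups differed in how many members changed, and in how many averaged at least 100 counts. The latter were 11 of 14 in group 2, 5 of 21 in group 3 and 5 of 26 in group 5. In groups 8 and 11 they were 3 of 25 and 6 of 23. In groups 14 and 15 they were 12 of 35 and 32 of 53. Over all genes tested against Ctrl, 15.0% were higher and 16.8% lower. At a mean of at least 100 counts the shares were 28.8% and 39.1%. The part of abundance in the counts below was not tested. In group 2, which held ZNF358, ZNF557, ZNF699 and ZNF317, 6 of 13 tested members rose and 5 fell in CRLM1-OE against Ctrl, so that neighbours moved in opposite directions. In group 11, 1 of 22 was higher (ZNF226) and 9 lower, and with total counts 1 was higher and 4 lower. In group 5, with its many near-silent genes, 2 of 23 were higher (ZNF430 and ZNF708) and 1 lower (ZNF724P).

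In group 3, 5 of 21 members were higher in Anti than in Ctrl, and 1 rose and 6 fell in CRLM1-OE against Anti. The 6 were ZNF653, ZNF627, ZNF440, ZNF136, ZNF564 and ZNF791, with log2 fold changes from -0.96 (ZNF136) to -0.48 (ZNF653). Against Ctrl 1 member of group 3 was higher (ZNF44) and 2 lower (ZNF653 and ZNF440). With total counts 6 were higher in Anti than in Ctrl, and the counts of 1 and 6 against Anti did not change. Over all genes tested, with TMM factors, 11.5% were higher in Anti than in Ctrl. Against Anti 17.1% were higher and 18.5% lower in CRLM1-OE.

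In group 15, 5 of 52 members were higher and 14 lower against Ctrl, and 2 of 53 higher and 20 lower against Anti. With total counts these became 10 and 10 against Ctrl and 2 and 18 against Anti. The 9 consecutive members from ZNF628 to ZNF444 at the start of the group, singled out after their values were seen, held 5 of the 10 most abundant members. Of the 9, 7 were lower in CRLM1-OE than in Ctrl (ZNF579, ZNF524, ZNF784, ZNF580, ZNF581, ZNF787 and ZNF444), ZNF865 was higher and ZNF628 did not pass, and with total counts 5 were lower and 2 higher. ZNF787, whose counts were the highest of the members, had 88.2, 87.2 and 90.6 CPM in CRLM1-OE, 109, 112 and 113 in Ctrl and 107, 109 and 112 in Anti, a log2 fold change of -0.32 ± 0.03 against Ctrl.

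Group 14, which holds ZNF83 and ZNF761, had 3 higher and 4 lower of 34 against Ctrl. Group 8 had 3 higher (ZNF565, ZNF461 and ZNF567) and 4 lower (ZNF146, ZNF566, ZNF383 and ZNF573) of 25. ZNF146 had 31.2, 30.0 and 33.3 CPM in CRLM1-OE, 44.4, 42.4 and 41.1 in Ctrl and 45.4, 47.3 and 44.03 in Anti, with CRLM1-OE below both and a log2 fold change of -0.44 ± 0.05 against Ctrl. ZNF565, the neighbour of ZNF146, rose by 0.82 ± 0.17 against Ctrl, and ZNF146 shares 7.15% of its 75-mers with other genes, mostly ZNF565.

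**Figure D4:**
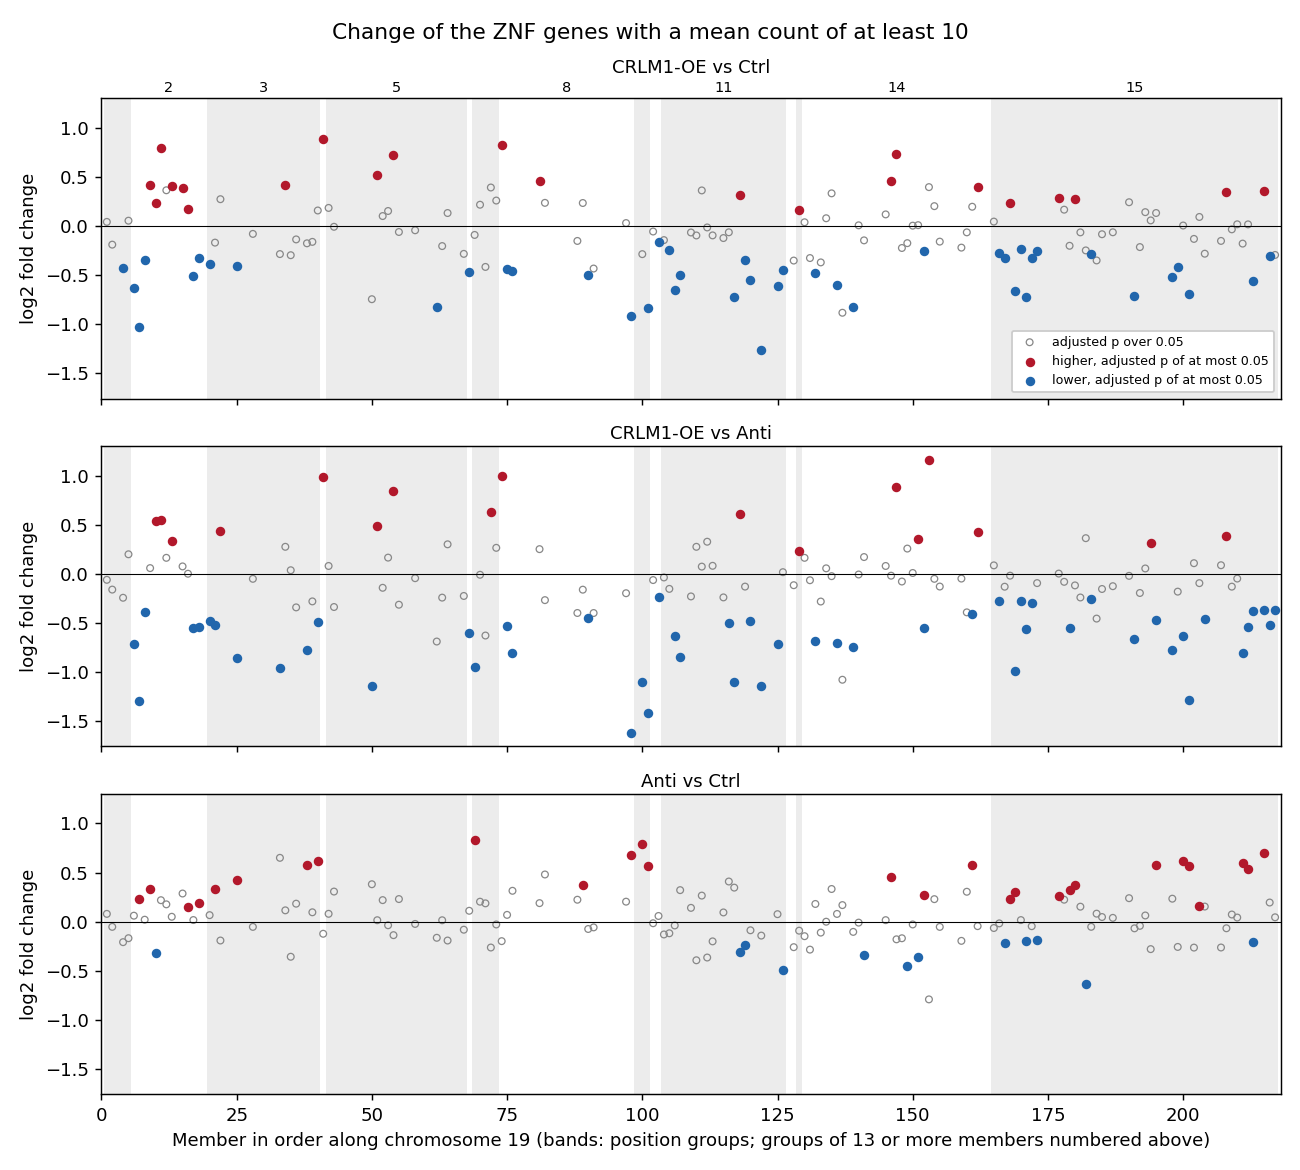
Log2 fold change (vertical axes) of the members with a mean count of at least 10 in their order along chromosome 19 (horizontal axis), for the 3 comparisons, with bands for the position groups. Filled points passed an adjusted p of at most 0.05 (red higher, blue lower), and in group 2 members of both directions lie side by side against Ctrl, 6 higher and 5 lower.

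Paralogs that differ by a letter did not always move alike, as far as unique reads can separate them. ZNF587 shares 35.4% of its 75-mers with other genes, mainly ZNF814 and ZNF417, and ZNF587B shares 13.9%. ZNF587 had 29.4, 24.2 and 25.5 CPM in CRLM1-OE, 23.6, 26.5 and 24.5 in Ctrl, and 27.9, 28.4 and 28.7 in Anti. CRLM1-OE overlapped Ctrl and Anti, and ZNF587 changed by -0.09 ± 0.05 against Anti (edgeR adjusted p = 0.15), beside the -1.28 ± 0.11 of ZNF587B.

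In CRLM1-OE against Ctrl, ZNF324 fell by 0.31 on the log2 scale (SE 0.09, edgeR adjusted p = 0.0042) and ZNF324B rose by 0.36 (SE 0.13, adjusted p = 0.018), while both were lower against Anti, by -0.52 ± 0.09 and -0.36 ± 0.11. ZNF324 shares 30.5% of its 75-mers with ZNF446, ZNF324B or other genes. ZNF585A did not pass in any comparison, and ZNF585B passed between the controls. The difference between the paralogs was not tested.

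The pooled signal of the family was also computed, as a sum in which abundant members weigh most. Against Ctrl, 8 of the 10 most abundant members by FPKM passed as lower and 1 as higher, at a median log2 change of -0.32. With total counts 7 were lower and 1 higher, at a median of -0.18. Of all genes averaging at least 100 counts, 28.8% were higher and 39.1% lower with TMM factors. Over all tested members the median with TMM factors was -0.10, so the sums do not describe a typical member. The members' TMM-scaled CPM summed to 1145, 1132 and 1142 in CRLM1-OE, 1248, 1264 and 1253 in Ctrl, and 1303, 1287 and 1302 in Anti, 3 ranges without overlap. As a share of unscaled counts the members took 0.119% to 0.120% in CRLM1-OE, 0.119% to 0.120% in Ctrl and 0.129% to 0.132% in Anti, so that CRLM1-OE and Ctrl overlapped without scaling. In bulk RNA, fewer cells that express a gene and less RNA per cell cannot be told apart.

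The machinery through which KRAB zinc finger proteins repress was read from 40 genes, all of which were tested. Against Ctrl 9 were higher and 24 lower in CRLM1-OE, with a median log2 fold change of -0.18, and 7 did not pass. With total counts 13 were higher and 13 lower. Against Anti 8 were higher and 23 lower (median -0.18), with 2 genes at 2-fold, and with total counts 13 were higher and 21 lower. All of the 40 but ATF7IP2 averaged at least 100 counts. Of all genes at that mean, 28.8% were higher and 39.1% lower against Ctrl with TMM factors. Against Anti the shares were 33.8% and 40.4%.

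TRIM28, the corepressor bound by the KRAB domain, had 128, 129 and 127 FPKM in CRLM1-OE, 113, 117 and 108 in Ctrl, and 121, 127 and 128 in Anti. Its log2 fold change was 0.07 ± 0.02 against Ctrl (edgeR adjusted p = 0.0045) and -0.01 ± 0.02 against Anti (adjusted p = 0.60). SETDB1, which writes the H3K9 trimethyl mark, changed by -0.18 ± 0.05 and -0.24 ± 0.05. Both changes were small beside those of ZNF358 or ZNF333.

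The largest falls, against Ctrl and against Anti, were those of RBBP4, CBX5 and MPHOSPH8. RBBP4, a histone chaperone of NuRD and other complexes, had 7.19, 7.22 and 6.75 FPKM in CRLM1-OE, 13.3, 12.4 and 12.4 in Ctrl, and 16.6, 16.6 and 16.3 in Anti, and fell by 0.96 (SE 0.03) against Ctrl and 1.27 (SE 0.03) against Anti on the log2 scale. CBX5, which encodes HP1α, had 2.46, 2.32 and 2.20 FPKM in CRLM1-OE, 3.59, 3.75 and 3.34 in Ctrl, and 5.59, 5.72 and 5.43 in Anti, and fell by 0.73 (SE 0.04) and 1.31 (SE 0.04). MPHOSPH8, the H3K9 methyl reader of the HUSH complex, fell by 0.61 (SE 0.07) and 0.86 (SE 0.07). In all 3 genes every CRLM1-OE sample was below every other sample. SUV39H2 came next, at -0.59 ± 0.14 against Ctrl and -0.78 ± 0.14 against Anti. The NuRD subunits did not move together. Against Ctrl, CHD4 changed by -0.28 and MTA1 by -0.17, whereas CHD3 changed by 0.37 and GATAD2A by 0.38.

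The increases against Ctrl were led by the DNA methyltransferases DNMT3B (0.55 ± 0.07) and DNMT3A (0.50 ± 0.07) and the NuRD subunit GATAD2A (0.38 ± 0.03). Against Anti they were led by the NuRD remodeller CHD3 (0.67 ± 0.04), ATF7IP2 (0.37 ± 0.15) and the histone H3.3 chaperone DAXX (0.33 ± 0.03). Between the controls 15 of the 40 were higher in Anti and 11 lower, and with total counts 23 and 5. The ends there were CBX5 (0.56 ± 0.04), the chromatin assembly subunit CHAF1A (0.51 ± 0.07) and UHRF1 (0.45 ± 0.04), which guides maintenance methylation, on the upper side and CHD3 (-0.33 ± 0.04), DAXX (-0.32 ± 0.03) and SUMO2 (-0.26 ± 0.02) on the lower.

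**Figure D5:**
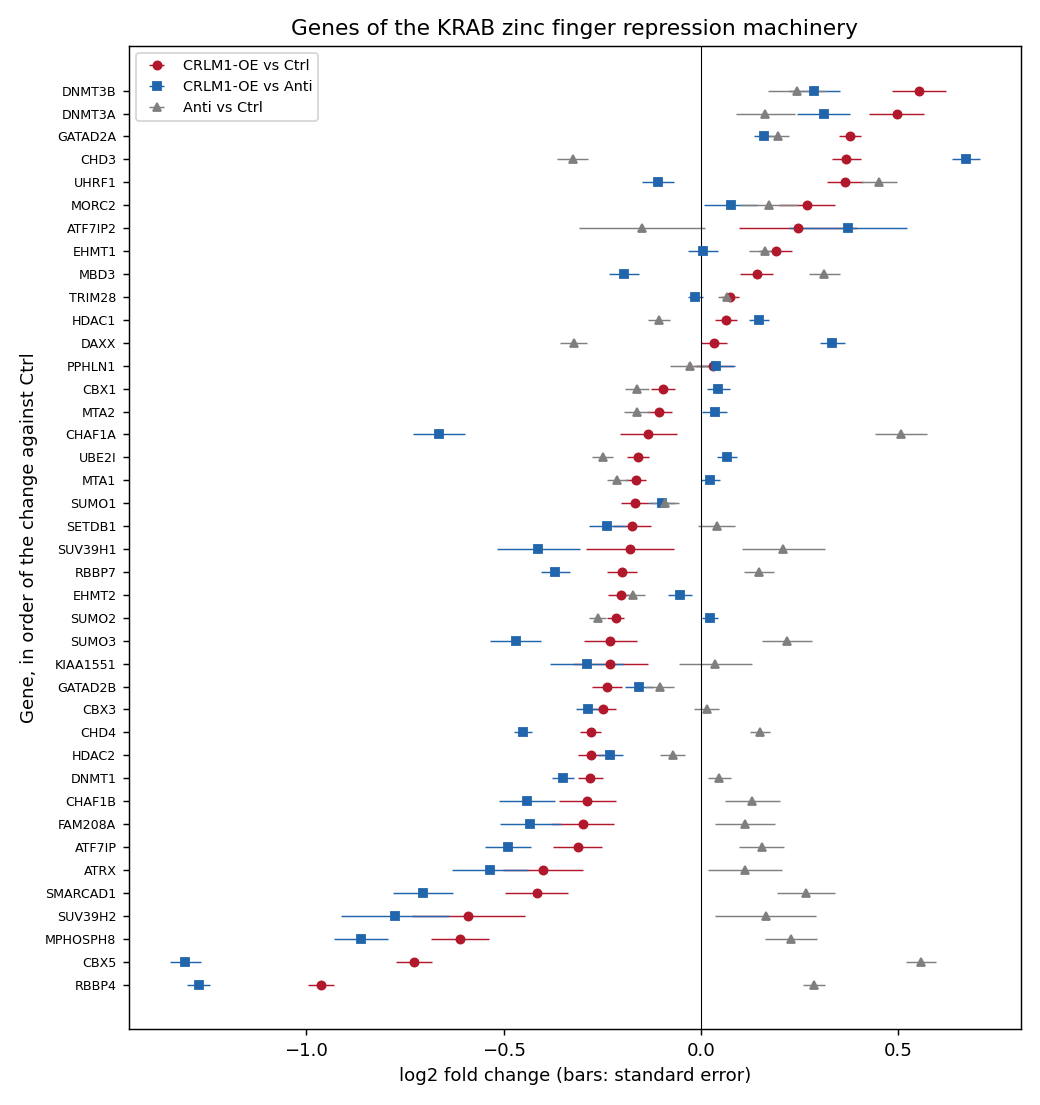
Log2 fold change (horizontal axis, bars for the standard error) of 40 genes of the repression machinery in the 3 comparisons, in order of the change against Ctrl. RBBP4 and CBX5 lie at the lower end, at -0.96 and -0.73 against Ctrl and -1.27 and -1.31 against Anti, and TRIM28 lies near 0 in each.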

How the data were processed

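Poly(A) RNA of 9 samples was sequenced as paired 151 nt reads. According to the study's methods, the authors trimmed reads with FASTX-Toolkit, dropped those under 16 nt, aligned them with TopHat2 (4 mismatches, GRCh38) and counted uniquely mapped reads on GENCODE version 23. The deposited counts are whole reads per gene, the deposited FPKM values are rounded to 2 decimals, and both tables hold genes that the authors called expressed. Use of strand in the counting is not given in the sources used here, and reads placed at more than 1 site are lost, which lowers the counts of similar paralogs.

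Counts were tested with edgeR 4.0.16 (R 4.3.3): TMM factors, quasi-likelihood test on the 6 samples of a comparison, all genes with at least 1 count, Benjamini-Hochberg adjustment over all of them, threshold 0.05. The SE beside a log2 fold change was its absolute value divided by the square root of the F statistic of this test. FPKM served only for levels. The script was tested on simulated data. Alternatives were RLE factors, total counts, edgeR's expression filter, at least 10 counts in every sample, DESeq2 1.42.0, limma 3.58.1 on log2(FPKM + 0.1) and log2(FPKM + 1), all 9 samples, a replicate block and leaving out each library. Members named were those called at 2-fold, the 8 largest changes in each direction among members averaging at least 100 counts, the 10 most abundant and those of known function, and others named were chosen after their values were seen. The members and lists were chosen with earlier results of these data known. Coordinates came from GENCODE version 44 by gene ID, and shared 75-mers from its transcripts. Protein sequences were not used here, so KRAB and finger content was not analysed. An exact permutation test of 3 against 3 samples cannot give a two-sided p below 0.1, so none is given.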

Additional observations from a re-analysis of the deposited data

How the results depend on the processing

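With total counts in place of TMM factors, 35 members rose and 26 fell in CRLM1-OE against Ctrl (median log2 fold change 0.030, reversed), the median against Anti was -0.071, and between the controls 44 were higher and 5 lower, with 2 at 2-fold and a median of 0.15. On log2(FPKM + 0.1), limma called 17 lower and 0 at 2-fold against Ctrl (median 0), 34 lower and 3 at 2-fold against Anti (median -0.046), and 18 higher, 3 lower and 0 at 2-fold between the controls. On log2(FPKM + 1) it called 17 lower and 0 at 2-fold against Ctrl (median 0), 1 at 2-fold against Anti (median -0.0094), and 3 lower and 0 at 2-fold between the controls (median 0.017). A pseudocount compresses the fold changes of low genes by its construction, and the FPKM values carried no TMM factors. The part of each in these shifts was not tested. With at least 10 counts in every sample, which tests fewer genes, 1, 7 and 0 members were called at 2-fold in the 3 comparisons. DESeq2 called 0 at 2-fold between the controls, where its adjusted p for ZNF441 was NA, as for 51, 45 and 61 members in the 3 comparisons. The median against Ctrl was -0.11 with edgeR's expression filter and with all 9 samples. The causes of the other shifts were not tested.

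Leaving out 1 library gave 18 to 22 higher, 33 to 39 lower, 2 to 6 at 2-fold and a median of -0.13 to -0.048 against Ctrl, with 6 at 2-fold without CRLM1-OE replicate 3 and 5 without Ctrl replicate 1 or 2. Against Anti it gave 14 to 18 higher, 47 to 51 lower, 8 to 14 at 2-fold and a median of -0.18 to -0.14. Between the controls it gave 21 to 29 higher, 8 to 12 lower, 0 to 2 at 2-fold and a median of -0.0077 (without Anti replicate 1) to 0.068. Of 60 calls of named members, 39 kept their side of the threshold under every alternative and 21 lost it under at least 1, with no change of sign. Deviations from the group means correlated at -0.075 to 0.078 between samples of different groups with the same replicate number. With different numbers they correlated at -0.11 to 0.14. The labels do not say whether the numbers pair the samples, and these correlations cannot decide it. With the replicate block 24 were higher and 45 lower against Ctrl, 17 and 52 against Anti, and 29 and 12 between the controls. Depth limits the 66 members with a mean count under 10.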
